A study of Homo sapiens with 4 samples.

Results

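The MYC, MAX and MXD network was read in RNA-seq libraries of lung adenocarcinoma cells carrying active AKT1 or an empty vector. Its 10 members were listed by gene symbol, with earlier results of these data known, and the rule itself uses no measured value: the MYC paralogs MYC, MYCN and MYCL, their obligate partner MAX, and the opposing factors MXD1, MXD3, MXD4, MXI1, MNT and MGA. They are 10 of the 60558 gene identifiers in each library. A549 and HCC827 are established human cell lines grown from non-small cell lung cancers. Each line was transduced with myr-AKT1, an AKT1 that a myristoyl anchor holds at the membrane and keeps active, or with vector, and 1 library was made per line and construct. The 4 groups are called by line and construct, as in A549-vector, and no difference within a line has a replicate check. The sources used here do not give whether a transduced line was a pool or a clone, or how long the construct had been carried.

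MYC proteins bind DNA only as dimers with MAX, at sites whose preferred core is the E-box CACGTG, and there they recruit acetyltransferases and other coactivators to genes of ribosome production, nucleotide and polyamine synthesis and the cell cycle. The MXD proteins, MXI1 and MNT also dimerise with MAX, occupy the same sites and bring in the SIN3 and histone deacetylase corepressor, and MXD genes are typically transcribed when cells leave the cycle or differentiate. MGA is a very large MAX partner that works within a variant Polycomb complex, PRC1.6, and keeps germline genes silent in somatic cells. AKT inactivates the kinase GSK3, which marks MYC protein for degradation, so much of what AKT is known to do to MYC happens to the protein and is not read by RNA.

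The recovered reads ranged from 16322183 in HCC827-myr-AKT1 to 33530317 in A549-vector. Within each line the values were scaled by size factors, and a normalized count here is a read count divided by that factor. Levels of different genes are compared in RPKM, reads per kb of canonical transcript scaled to the recovered reads of the library, which was computed here. The log2 fold change (log2FC) of a gene compares myr-AKT1 with vector in the same line. Its 95% counting interval, given in brackets, covers the sampling of reads only, since PCR copies are not separate molecules and nothing measures the variation between cultures. AKT1 itself had log2FC values of 0.57 in A549 (0.51 to 0.63) and 1.14 in HCC827 (1.07 to 1.21), and reads from the construct could not be separated from those of the cell's own gene. Of 8 epithelial and lung markers, NKX2-1, which defines lung lineage, had 8 reads or fewer in both A549 libraries against 702 and 1993 in HCC827, and SFTPB had 0 reads in A549, while EPCAM, KRT8, KRT18, KRT19 and CDH1 had at least 380 reads in all 4 libraries. In HCC827, 7 of the 8 had a negative log2FC and 3 were below -1, the lowest at -3.73, where 14.1% of all genes were below -1. Of the 6 with reads in both A549 libraries, 3 were negative and 3 positive, with 2 above 1, where 18.2% of all genes were. Of 7 markers of blood, endothelial and stromal cells, CD3E and COL1A2 were at 0 in every library and PTPRC had 7 reads or fewer. COL1A1 was higher with myr-AKT1 in both lines (668 against 88 reads in A549 and 142 against 56 in HCC827), as was PECAM1 (61 against 13 and 84 against 78). LUM (304 against 26 reads) was so in A549 and VWF (15 against 10) in HCC827. Summed over the 7 markers, the level was 41.3 CPM in A549-myr-AKT1 against 3.85 in A549-vector and 14.8 in HCC827-myr-AKT1 against 5.49 in HCC827-vector, and the part of such transcripts in the results was not tested.

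Across the network, A549 and HCC827 had in common higher MXD1 and MXD4, lower MGA and a MAX level near that of vector, while MYC was lower by 3.34-fold in A549 and by 1.15-fold in HCC827. In A549, 4 of the 10 members had a log2FC past 1 or -1, 2 upward (MYCN and MXD1) and 2 downward (MYC and MXD3). Over all 24302 genes with reads in both libraries of this line, 18.2% were above 1 and 12.4% below -1. The stricter limits of 2 and -2 were passed by MYCN and MXD3, where 6.89% of all genes were above 2 and 3.62% below -2. In HCC827, 4 of the 9 members with reads in both libraries were above 1 (MYCL, MXD1, MXD4 and MNT) and 0 below -1, against 17.5% and 14.1% of 22736 genes. No member passed 2 or -2 in HCC827, where 6.13% of genes were above 2 and 3.87% below -2. The median log2FC of the members was 0.00 in A549 and 0.75 in HCC827, and the median over all genes was 0 in both lines.

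In A549-vector, MYC was the most abundant member per length, and in A549-myr-AKT1 it was below MAX. MYC lies at chr8:127735434-127742951 on the plus strand of GRCh38. Its normalized count was 1595 in A549-myr-AKT1 (1393 reads) and 5331 in A549-vector (6105 reads). This was a log2FC of -1.74 (-1.83 to -1.66). In HCC827-myr-AKT1 it had 3741 normalized counts and in HCC827-vector 4302, a log2FC of -0.20 (-0.27 to -0.14). Both intervals lie below 0, and the HCC827 value exceeded the A549 value by 1.54 with a counting SE of 0.05. In RPKM, the level of MYC was 48.9 in A549-vector, 53.3 in HCC827-vector and 49.0 in HCC827-myr-AKT1, and A549-myr-AKT1, at 14.9, stood apart from these 3 libraries. With scaling over the total reads, the HCC827 log2FC of MYC was -0.12. The antisense lncRNA CASC11 covers 3.18% of the exon bases of MYC and had 4 to 19 reads per library.

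MYCN and MYCL, the paralogs that drive neuroblastoma and some small cell lung cancers, were rare beside MYC. MYCN had 27 reads in A549-myr-AKT1, 1 in A549-vector and 0 in both HCC827 libraries. The A549 ratio was 35.4, or 5.15 on the log2 scale, with a counting interval of 2.54 to 10.501 that the single vector read leaves wide. At its highest, MYCN reached 0.41 RPKM against 14.9 for MYC in the same library. MYCL had 101 normalized counts in A549-myr-AKT1 and 92.6 in A549-vector, a log2FC of 0.12 whose interval of -0.30 to 0.54 includes 0. In HCC827 it had 108 against 42.1, a log2FC of 1.36 (0.85 to 1.88) that rests on 86 and 53 reads. MYC made up 91.4% of the summed level of the MYC family per length in A549-myr-AKT1 and between 97.0% and 99.0% in the other 3 libraries. MYCN and MYCL together therefore gave under 10% of the family total in every library.

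MAX, the dimerisation partner shared by the MYC, MXD and MNT proteins and MGA, differed by less than counting error in either line. It had 1240.2 normalized counts in A549-myr-AKT1 and 1242 in A549-vector, and 1148 in HCC827-myr-AKT1 against 1149 in HCC827-vector. The log2FC values were 0.00 (-0.12 to 0.11) and 0.00 (-0.12 to 0.12). These values are relative to the scaling: over 3 other scalings the log2FC of MAX ranged from 0.02 to 0.10 in A549 and from -0.02 to 0.08 in HCC827. Transcripts of FNTB on the opposite strand overlap 13.1% of the exon bases of MAX, and the strand setting of the counting is not given in the sources used here. MAX was at 21.4 and 21.1 RPKM in the A549 libraries and at 27.8 and 26.3 in the HCC827 libraries, with myr-AKT1 first. In order of level, MAX ranked first among the members in A549-myr-AKT1 and second to MYC in the other 3 libraries.

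**Figure D1:**
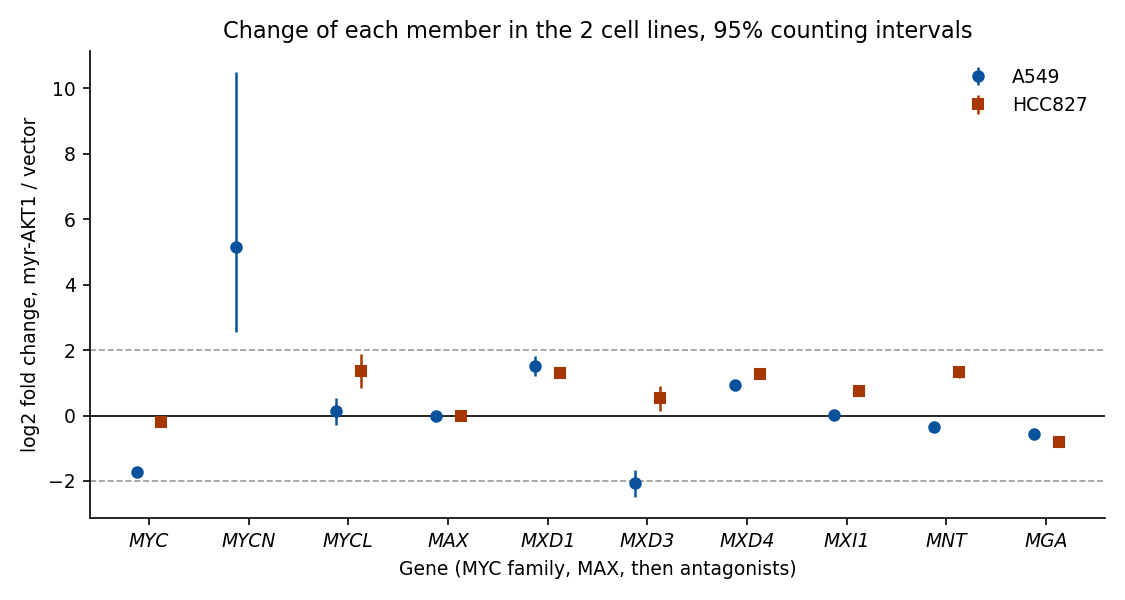
Log2 fold change of each member, myr-AKT1 over vector, in A549 (circles) and HCC827 (squares), with 95% counting intervals and dashed lines at 2 and -2. MXD1 and MXD4 lie above 0 and MGA below 0 in both lines, whereas MXD3 and MNT lie on opposite sides of 0.

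Among the antagonists, MXD1 and MXD4 were higher with myr-AKT1 in both lines. MXD1 (MAD1), the founding MAX dimerisation antagonist of MYC, lies at chr2:69897688-69942945 on the plus strand. It had 318 normalized counts in A549-myr-AKT1 and 112 in A549-vector, and 1291 in HCC827-myr-AKT1 against 528 in HCC827-vector. Both pairs were apart by more than counting error, with log2FC values of 1.51 (1.203 to 1.82) and 1.29 (1.15 to 1.43). The difference between the lines, HCC827 minus A549, was -0.22 with an interval of -0.55 to 0.11. MXD4, at chr4:2247432-2262109 on the minus strand, had 1063 against 561 normalized counts in A549 and 1466 against 605 in HCC827. Its log2FC values were 0.92 (0.78 to 1.07) and 1.28 (1.14 to 1.41). Subtracting the median of genes of like GC content, a step chosen after the data were seen, gave 1.11 for MXD4 in HCC827. At the level of transcripts per length, MXD4 was the highest of the MXD genes in both myr-AKT1 libraries, with 9.52 RPKM in A549 and 18.4 in HCC827, and MXD1 reached 1.99 and 11.3.

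The promoters of these members are shown because the E-box is the site over which MYC-MAX and MXD-MAX dimers compete. In the RefSeq promoter set (GRCh38.p14, 250 bases before to 50 after each start), 9 of the 10 members had an entry, and CACGTG, which reads the same on both strands, occurred in 2 of the 9, those of MXD4 at -238 and MNT at -193. It occurred in 7.44% of all 27305 promoters. Printed are the bases before the start site that lie in no annotated exon: chr2:69914859-69915040 on the plus strand, chr4:2262110-2262359 on the minus strand and chr17:2401105-2401310 on the minus strand, 5′ to 3′ along the gene, with CACGTG in capitals. A match describes the sequence and does not show that the site is bound.
MXD1: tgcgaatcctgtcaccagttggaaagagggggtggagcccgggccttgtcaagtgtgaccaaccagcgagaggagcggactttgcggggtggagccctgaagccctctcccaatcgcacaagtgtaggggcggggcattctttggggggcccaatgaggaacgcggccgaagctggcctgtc
MXD4: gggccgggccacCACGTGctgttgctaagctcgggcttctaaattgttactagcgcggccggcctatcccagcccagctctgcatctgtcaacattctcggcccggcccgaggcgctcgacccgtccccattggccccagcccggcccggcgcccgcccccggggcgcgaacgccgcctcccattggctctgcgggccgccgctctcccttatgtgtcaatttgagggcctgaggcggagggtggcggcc
MNT: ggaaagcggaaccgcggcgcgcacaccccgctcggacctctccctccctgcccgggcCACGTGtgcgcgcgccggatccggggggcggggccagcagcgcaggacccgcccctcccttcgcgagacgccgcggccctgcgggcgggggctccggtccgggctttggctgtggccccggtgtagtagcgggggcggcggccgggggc
The window of MXD1, the antagonist with the highest log2FC in A549, holds no CACGTG. It lies inside the gene span given above, as the RefSeq start used here is downstream of the start of that span. Bases before chr2:69897688 were not searched.

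MXI1 and MNT, the more broadly expressed antagonists, were higher in HCC827-myr-AKT1 and not in A549-myr-AKT1. MXI1 (chr10:110207605-110287365, plus strand) had 796 normalized counts in A549-myr-AKT1 and 795 in A549-vector, with a log2FC of 0.00 (-0.14 to 0.15). In HCC827 it had 936 against 558, a log2FC of 0.75 (0.60 to 0.90). The interval of the A549 pair includes 0 and that of the HCC827 pair does not, and the lines were 0.74 apart (0.54 to 0.95). MNT, which represses MYC targets in resting and cycling cells alike (chr17:2384073-2401104, minus strand), had 536 against 678 normalized counts in A549, a log2FC of -0.34 (-0.51 to -0.17). In HCC827 it had 715 against 285, a log2FC of 1.32 (1.13 to 1.52). The 2 values lay on opposite sides of 0, each beyond its counting error, and with 1 library per condition the difference between the lines could not be tested across samples.

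MXD3, a family member linked to the S phase of dividing cells, lay on opposite sides of 0 as well. Its normalized count was 71.0 in A549-myr-AKT1, with 62 reads, and 297 in A549-vector, with 340, a log2FC of -2.06 (-2.48 to -1.67). In HCC827 it had 135 (107 reads) against 93.8 (118 reads), a log2FC of 0.52 (0.13 to 0.91). MXD3 passed the limit of -2 in A549, but with size factors over all 4 libraries it did not, leaving 1 member past 2 or -2. Its exons (chr5:177301461-177312757, minus strand) share 19.5% of their bases with RAB24 on the same strand and 24.2% with PRELID1 on the opposite strand. PRELID1 had 1847 to 5479 reads per library against 62 to 340 for MXD3, so reads assigned to MXD3 are uncertain.

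MGA was lower with myr-AKT1 in both lines. It lies at chr15:41621134-41773081 on the plus strand, and its canonical transcript of 12193 bases is the longest of the network. It had 4310.3 normalized counts in A549-myr-AKT1 and 6339.9 in A549-vector, a log2FC of -0.56 (-0.61 to -0.50). In HCC827 it had 2283 against 3994, a log2FC of -0.81 (-0.89 to -0.73). Genes of low GC content were lower in HCC827-myr-AKT1 as a class: the median log2FC was -0.46 in the lowest GC decile and 0.14 in the highest. The GC content of MGA is 42.2%, in a decile whose median was -0.18 in HCC827 and -0.11 in A549. With that median subtracted, MGA had -0.63 in HCC827 and -0.45 in A549.

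The fit across all 4 libraries, with cell line as a block, asked which members differed alike in both lines. It used limma on log2 of the value plus 1 and has 1 residual degree of freedom. The variance of each gene is moderated toward a trend over all genes. Its p-values therefore do not rest on a gene's own spread between the lines alone. Of 19314 genes tested, 1.29% were called higher and 1.73% lower at an adjusted p under 0.05. Of the 9 members tested, 0 were called in either direction, and 4 had an unadjusted p under 0.05. MXD1 had a log2FC of 1.39 (SE 0.33, adjusted p = 0.0739) and MXD4 of 1.10 (SE 0.28, adjusted p = 0.0891). MGA had -0.68 (SE 0.24, adjusted p = 0.188) and MYC -0.97 (SE 0.36, adjusted p = 0.209). The other 5 members had adjusted p-values of 0.56 or more, and MYCN was left out by the filter on low counts. DESeq2's Wald test on the recovered reads called 2 members, MXD1 (adjusted p = 0.00347) and MXD4 (adjusted p = 0.0129), and edgeR's quasi-likelihood test called 0 with either normalization. With every gene of at least 1 read in any library, limma called 3 members, MYC (adjusted p = 0.0121), MXD1 (adjusted p = 0.00719) and MXD4 (adjusted p = 0.0218). Over all genes, DESeq2 called 621 of 19314 higher and 518 lower, and this limma fit called 1101 of 33056 higher and 894 lower. In that fit the SE of MYC was 0.28, against 0.36 in the first fit, although its log2FC was -1.74 in A549 and -0.20 in HCC827. The call of MYC there thus does not show that the 2 lines were alike. With a pseudocount of 0.1 or with the block left out, limma called 0 of the 19314 genes, where 3184 and 631 had an unadjusted p under 0.05, so each limma call given for another gene here is lost in those fits.

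Summed by role, the balance of MYC-family over antagonist transcripts was lower with myr-AKT1 in both lines. The summed MYC-family level was 16.3 RPKM in A549-myr-AKT1 and 49.8 in A549-vector, and the summed antagonist level was 37.8 and 45.4. Their ratio was 0.430 in A549-myr-AKT1 (0.406 to 0.457) and 1.10 in A549-vector (1.06 to 1.14), a log2 change of -1.35 with a counting SE of 0.05. In A549 the MYC-family sum had a log2FC of -1.64 and the antagonist sum of -0.29. In HCC827-myr-AKT1 the family sum was 50.4 and the antagonist sum 65.2, and in HCC827-vector they were 53.8 and 40.8. The ratios were 0.773 (0.737 to 0.811) and 1.32 (1.27 to 1.37), a log2 change of -0.77 with a counting SE of 0.05. Here the antagonist sum had a log2FC of 0.60 and the MYC-family sum of -0.17, so the larger of the 2 was on the antagonist side in HCC827 and on the MYC side in A549. The HCC827 value depended on the counting of length and of MGA: it was -0.34 when levels were not divided by length and -1.22 with MGA left out. Length also bears on which sum is larger within a library: in A549-vector, MGA alone had 7260 reads and MYC 6105. Transcript levels do not give the amounts of the proteins that compete for MAX.

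MYC-activated target genes, a list of 45 textbook targets that was also written with earlier results known, were lower with myr-AKT1 in both lines. Of 45 with reads in both A549 libraries, 43 had a negative log2FC, with a median of -0.995, and of 44 in HCC827 all 44 did, with a median of -1.13. Among those with a mean count of 50 or more, 22 of 44 (50%) were below -1 in A549 and 26 of 43 (60.5%) in HCC827, and 0 were above 1 in either line. Among all genes of that abundance, 7.9% were below -1 and 11.2% above 1 in A549, and 10.3% were below -1 and 10.2% above 1 in HCC827. In both lines at once, 20 of 43 (46.5%) were below -1, where 4.1% of 12051 genes were, while 3.11% were above 1. With limma, 13 of the 44 tested were lower and 0 higher, at a list median of -1.05. The count depended on the tool: edgeR with TMM called 5, edgeR with DESeq2 size factors 0, DESeq2 20 and limma without the count filter 28, all lower. Of all 19314 genes tested, limma called 1.73% lower, edgeR with TMM 228 genes, edgeR with DESeq2 size factors 57 and DESeq2 518. Limma without the count filter called 894 of 33056 lower. In the same libraries the log2FC of MYC itself was -1.74 in A549 and -0.20 in HCC827.

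By the mean of both lines, TERT, BOP1, CDC25A and TCOF1 were the lowest of that list. TERT, the catalytic subunit of telomerase, had 31 reads against 316 in A549, a log2FC of -2.96 (-3.54 to -2.42). In HCC827 it had 2 reads against 99, a log2FC of -4.97 with a wide interval of -8.03 to -3.08. The limma value of TERT was -3.71 (adjusted p = 0.032), and its interval lay below 0 in both lines. BOP1, which matures the large ribosomal subunit, had -1.78 in A549 and -1.61 in HCC827 (limma adjusted p = 0.023), and TCOF1, a nucleolar factor of ribosomal DNA transcription, had -1.70 and -1.50 (limma adjusted p = 0.0227). CDC25A, a phosphatase that activates cyclin-dependent kinases, had -2.25 and -1.06 and was not called (limma adjusted p = 0.0723). TMEM97 was the exception among well-counted genes in A549, at 0.24 (0.18 to 0.29), a gene named after its values were seen.

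Targets with and without an E-box in the 300-base promoter had like medians, and bases outside that window were not searched. CACGTG occurred in the 300-base promoter of 18 of 40 MYC-activated targets (45%). Among targets with a mean count of 50 or more in both lines, the 17 with the E-box had a median log2FC of -0.89 in A549 and -1.15 in HCC827, and the 22 without it -0.98 and -1.05. Among all genes of that abundance with a promoter entry, the 976 with an E-box had medians of -0.17 and -0.15. The 8509 without had -0.11 and -0.07, as a description with no test. CDK4, APEX1, EIF4E and LDHA, named after their values were seen, are the 4 targets with 2 E-boxes in the part of the promoter that lies in no exon, and they are printed with CACGTG in capitals. The windows are chr12:57752448-57752560 on the minus strand, chr14:20455090-20455190 on the plus strand, chr4:98929134-98929383 on the minus strand and chr11:18394313-18394559 on the plus strand.
CDK4: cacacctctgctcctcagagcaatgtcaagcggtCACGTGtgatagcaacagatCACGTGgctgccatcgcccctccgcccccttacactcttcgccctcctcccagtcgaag
APEX1: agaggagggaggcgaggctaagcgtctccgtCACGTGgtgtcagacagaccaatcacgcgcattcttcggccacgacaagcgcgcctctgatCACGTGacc
EIF4E: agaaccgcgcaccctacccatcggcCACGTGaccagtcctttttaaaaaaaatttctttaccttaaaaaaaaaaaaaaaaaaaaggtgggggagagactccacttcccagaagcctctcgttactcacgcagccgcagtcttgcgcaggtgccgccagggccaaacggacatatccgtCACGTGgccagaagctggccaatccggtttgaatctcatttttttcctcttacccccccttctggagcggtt
LDHA: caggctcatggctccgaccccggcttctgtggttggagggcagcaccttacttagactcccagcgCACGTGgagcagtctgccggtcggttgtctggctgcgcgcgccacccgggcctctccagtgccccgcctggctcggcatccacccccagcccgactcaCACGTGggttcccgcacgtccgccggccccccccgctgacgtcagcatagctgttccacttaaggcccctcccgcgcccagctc
CDK4, the kinase that drives passage through G1, had log2FC values of -0.59 in A549 and -1.25 in HCC827, and APEX1, a DNA repair endonuclease, had -0.58 and -1.37. EIF4E, which binds the mRNA cap, had -0.59 and -0.74, and LDHA, lactate dehydrogenase A, had -0.03 and -0.73.

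Genes that MYC is known to repress were mostly higher. Of 10 such genes, 8 had reads in both A549 libraries and all 8 had a positive log2FC, with a median of 1.17, and 8 of 9 were positive in HCC827, with a median of 0.79. Among those with a mean count of 50 or more, 4 of 7 were above 1 in A549 and 4 of 8 in HCC827. Among all genes of that abundance, 11.2% and 10.2% were above 1. CDKN1A, the cell cycle inhibitor p21, had 10512 normalized counts against 1964 in A549 and 691 against 82.7 in HCC827. Its log2FC values were 2.42 (2.35 to 2.49) and 3.06 (2.76 to 3.38), and it was the only one of 9 tested genes that limma called (2.73, adjusted p = 0.00738). NDRG2 had 443 against 232 reads in A549, a log2FC of 1.32 (1.09 to 1.56), and 129 against 5 in HCC827, a log2FC of 5.35 (4.09 to 7.0). It was not called by limma (adjusted p = 0.0953), and CDKN1C, the inhibitor p57, had 1.12 and 1.70 from 23 to 78 reads per library (limma adjusted p = 0.289). CDKN1A is also a p53 target. DESeq2 called 3 of the 9 genes and limma without the count filter 4 of 10, all higher. Over all genes, limma called 1.29% higher, DESeq2 621 of 19314 and limma without the count filter 1101 of 33056.

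Of 18 genes that set the turnover of MYC protein, limma called 3 lower and 0 higher, where 1.73% of all genes were called lower. Also lower were 2 with edgeR and TMM, 1 with edgeR and DESeq2 size factors, 5 each with DESeq2 and with limma without the count filter, and 0 in limma with a pseudocount of 0.1 or without the block. CIP2A, which shields MYC from the phosphatase PP2A, had log2FC values of -2.35 in A549 and -2.03 in HCC827 (limma adjusted p = 0.0107). SKP2, a subunit of a ubiquitin ligase, had -1.47 and -1.60 (limma adjusted p = 0.0307), and PLK1, a mitotic kinase that stabilises MYC proteins, had -2.99 and -1.18 (limma adjusted p = 0.0443). All 3 are also transcribed mainly in dividing cells. The list median was -0.55 in A549 and 0.00 in HCC827. FBXW7, the ligase that reads the GSK3 mark on MYC, was named after its values were seen and had log2FC values of 0.19 and -0.05.

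Of 16 coactivators and partners of MYC, limma called 0, with 4 at an unadjusted p under 0.05. Neither edgeR fit nor DESeq2 called any, while limma without the count filter called 1 lower, where it called 894 of 33056 genes lower. Negative log2FC values were had by 15 of the 16 in A549 and 9 in HCC827, with medians of -0.50 and -0.03. All genes with a mean count of 50 or more had medians of -0.07 and -0.06. Below -1 were 2 of 16 (12.5%) in A549 and 0 in HCC827, against 7.9% and 10.3% of those genes. Above 1 were 0 and 1 (6.25%), against 11.2% and 10.2%. ACTL6A (-0.97 in A549 and -0.86 in HCC827) and WDR5 (-0.96 and -0.82), which link MYC to chromatin remodelling and to histone methylation, were the lowest by the mean of both lines. HCFC1 (-0.48 and 0.99) and EP400 (-0.13 and 1.14), a MYC-binding host cell factor and a remodelling ATPase, were the highest and had opposite signs in the 2 lines. The SIN3 and HDAC corepressor, which MXD proteins need, had 0 of 11 genes past 1 or -1 in either line. Their median was -0.30 in A549 and -0.49 in HCC827. By the mean of both lines RBBP7 (-0.70 and -0.67) and BRMS1 (-0.56 and -0.70) were the lowest and SIN3B (0.29 and 0.50) the highest. SAP30, named after its values were seen, was the highest in A549 (0.36) and the lowest in HCC827 (-0.98). For these genes limma called 0 of 11, with 1 at an unadjusted p under 0.05. edgeR and DESeq2 also called 0 of the 11.

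The partners of MGA in PRC1.6 mostly had negative log2FC values, like MGA, with calls that depended on the fit. Of 9 genes, 8 had negative log2FC values in each line, with medians of -0.43 in A549 and -0.41 in HCC827. The medians of all genes with a mean count of 50 or more were -0.07 and -0.06. Below -1 was 1 of the 9 (11.1%) in each line, near the 7.9% in A549 and 10.3% in HCC827 of those genes. CBX3 lies in a GC decile whose median was -0.30 in HCC827. TFDP1 (-1.07 and -0.98) and CBX3 (-0.84 and -1.05) were the lowest, and limma called 0 of 9, with 2 at an unadjusted p under 0.05. DESeq2 and limma without the count filter each called 2 of the 9 lower, and edgeR called 0. Over all genes these 2 fits called 518 of 19314 and 894 of 33056 lower. Of 10 germline genes that MGA and PRC1.6 keep silent, 3 had 0 to 1 reads in every library, DAZL, MAEL and TEX101. TDRKH, a piRNA factor that other tissues also express, was the only one with a mean count of 50 or more, at -0.18 (-0.39 to 0.03) and 0.05 (-0.09 to 0.20). STAG3, a meiotic cohesin, had 5 against 20 reads in A549 and 28 against 14 in HCC827, with log2FC values of -1.61 and 1.66. At this depth no direction can be read for the list.

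In the MLX arm, which parallels MAX and shares MNT and MXD partners with it, MLXIP had log2FC values of 0.88 in A549 and 0.94 in HCC827, MLXIPL of 0.55 and 1.19, and MLX of -0.39 and -0.42. MLXIP and MLXIPL, the glucose-sensing MondoA and ChREBP, had intervals above 0 in both lines, and limma called 0 of the 3, with 1 at an unadjusted p under 0.05, where DESeq2 called 1 higher. Of the lncRNAs beside MYC-family genes, 7 of 8 were matched and 4 had at least 20 reads in a pair. PVT1, transcribed next to MYC and reported to stabilise its protein, had -0.43 (-0.49 to -0.36) in A549 and 0.00 (-0.07 to 0.08) in HCC827, a smaller decrease than that of MYC in A549. CASC8 had 1.04 and -0.26, PCAT1 -0.31 and -0.03, and CASC11 -1.86 and 0.82 from 4 to 19 reads. MYCNOS, the antisense partner of MYCN, had 0 reads in every library, A549-myr-AKT1 included.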

How the data were processed

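Total RNA of A549 and HCC827 cells with myr-AKT1 or vector gave 4 stranded libraries, 1 per condition. The labels describe removal of ribosomal RNA and the Methods polyadenylated RNA selection. The authors trimmed reads, mapped them to hg38 with Bowtie2 and computed values with HTSeq. The Methods name RPKM, but the deposited signal is reads over a library's size factor, estimated within a line (0.873 with myr-AKT1 and 1.15 with vector in A549, 0.795 and 1.26 in HCC827). Dividing by the worth of 1 read gave whole reads (tolerance 0.001) for all genes except 1 in each vector library. Of 60558 identifiers, 297 had no symbol in GENCODE release 44.

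The members and lists were chosen with earlier results of these data known, and 1 marker gene of another cell type is not reported here. Log2 fold changes used no pseudocount, with Clopper-Pearson 95% intervals that cover counting error only. With 1 library per condition, a gene is called within a line when its log2 fold change passes 2 or -2. The study pairs these limits with a Wald test, whereas here the fold alone makes the call, and no p-value was computed there. Lengths are those of Ensembl canonical transcripts. The cell line pairs the libraries, since the same line carries both constructs, and is the block in limma on log2(value + 1) with a mean-variance trend, over genes kept by edgeR's filterByExpr. The p-values were adjusted by Benjamini-Hochberg over all genes. Its residual spread is that between the lines, which limma moderates toward the trend shared by all genes. An interaction leaves no residual degree of freedom. Whole reads served edgeR's quasi-likelihood test and DESeq2's Wald test as alternatives. Named from each list were genes past 1 or -1 in both lines in the same direction with at least 20 reads per pair, up to 4 by mean log2 fold change, otherwise the 2 highest and 2 lowest. Alternatives were 3 scalings, a pseudocount of 1 (0.1 in limma), a mean count of at least 50, a threshold of 1, other lengths and no block. Subtraction of GC-decile medians and the length of all exons were added after seeing the data. Fits ran in R 4.3.3 with DESeq2 1.42.0, limma 3.58.1 and edgeR 4.0.16, and the rest in Python 3.11.15 with pandas 2.3.3, scipy 1.17.1, matplotlib 3.10.9 and numpy 2.4.6.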

Additional observations from a re-analysis of the deposited data

Results flagged for a closer look

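Among the genes named with values for both lines, 10 had opposite directions in the 2 lines with both counting intervals clear of 0, and with 1 library per condition none of these differences was tested across samples. HCC827 minus A549, the log2 fold changes were 2.59 apart for MXD3 and 1.66 for MNT among the members. MXD3 has the overlaps with RAB24 and PRELID1 given above. Among MYC coactivators the difference was 1.47 for HCFC1 and 1.27 for EP400. It was 3.27 for STAG3, from 5 to 28 reads per library, and -1.30 for the lncRNA CASC8. Further differences were -3.40 for KRT19 and -0.81 for EPCAM among the epithelial markers, -0.78 for the MYC-activated target TMEM97 and -1.34 for the corepressor subunit SAP30.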

How the results depend on the processing

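The members past 2 or -2 in A549 numbered 2, and 1 with size factors over all 4 libraries (MYCN, with MXD3 at the limit) or with a mean count of at least 50 (MXD3). A threshold of 1 gave 4 in A549 and 4 in HCC827. The log2 change of the MYC-family to antagonist ratio in A549 was -1.50 with MGA left out, -1.54 over MXD1, MXD3, MXD4 and MXI1 alone and -1.48 with the length of all exons, and in HCC827 it was -0.34 undivided by length, -1.22 without MGA and -1.18 over the 4 MXD genes. DESeq2's Wald test called 2 members and limma on genes of at least 1 read in any library called 3. The fit with no replicate block (cell line left out) called 0 of 9 members, as did the blocked fit, and 0 of 44 MYC-activated targets against 13. Of the 19 log2 fold changes of members within a line, 19 stayed inside their counting interval with TMM and with a pseudocount of 1, 17 with total reads and with factors over all 4 libraries, and 16 with GC-decile medians subtracted, and the signs that changed were those of MAX, near 0. Medians of MYC-activated targets ranged from -1.01 to -0.89 in A549 and from -1.15 to -1.05 in HCC827. Factors over all 4 libraries moved the median of all A549 genes by 0.10. Over all genes limma called 250 higher and 335 lower, edgeR with TMM 196 and 228, edgeR with DESeq2 size factors 42 and 57, DESeq2 621 and 518, limma with any gene of 1 read 1101 and 894, and limma with a pseudocount of 0.1 or no block 0. Without any 1 library the fit keeps no residual degree of freedom, and the pair of the other line is the value given for that line. MYCN, TERT in HCC827 and the germline genes are limited by depth.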
